A study of Mus musculus with 4 samples.

Results

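RNA carrying N6-methyladenosine (m6A) was pulled down from mouse embryonic stem cells with and without the Gsk-3 kinases. The regions described here are those whose annotation reaches across a border between a coding exon and an intron. A region was taken once, by chromosome, start and end, if at least 1 of its annotation lines named both a coding exon and an intron and none named an untranslated region. Of 6697 distinct regions in the deposited table, 1117 had such a line, 128 of them were left out for an untranslated region, and 989 remained. These 989 border-crossing regions made up 14.8% of all regions and 33.9% of the 2914 regions that touch coding sequence, and they lay in 715 genes.

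The study had 4 samples of the E14K embryonic stem cell line, namely an m6A immunoprecipitate and an input for each of 2 genotypes, wild type and a double knockout of Gsk-3 (Gsk-3 DKO). All 4 had been cultured without feeder cells and without leukaemia inhibitory factor (LIF) for 14 days, so the wild-type cells were also outside self-renewal conditions. Each group was 1 library, with no replicate, and whether the knockout came from 1 clone is not given in the sources used here. The 2 count columns name a genotype and no library type. They were assigned to the m6A libraries, whose titles alone hold the assay's name, but from the headers alone they cannot be told apart from input counts.

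The table had 0 input columns. The amount of an mRNA and the methylated share of it therefore cannot be told apart, nor can fewer cells of a type and less RNA per cell. Of 10 pluripotency markers 3 had regions of any kind (Pou5f1, Esrrb and Lin28a, but neither Nanog nor Sox2), beside 4 of 7 early neural, 5 of 8 endoderm and 5 of 8 mesoderm or fibroblast markers. Summed over those regions, the wild-type and knockout reads were 261 and 18 for pluripotency, 3743 and 15 for neural, 1829 and 224 for endoderm, and 670 and 3 for mesoderm or fibroblast markers. The targeted genes gave no check of the genotype labels, since the only region under either name lay 3769 bases upstream of Gsk3b. With 1 library a group there is no test, every difference is between these libraries, and intervals are exact 95% intervals of counting error only. Amplified reads without molecular identifiers can be copies of 1 molecule.

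As background, m6A is written on nascent RNA by a complex of METTL3, METTL14 and accessory proteins such as WTAP, mostly at an adenosine followed by C inside a short sequence known as DRACH. In mature mRNA it is dense in long internal exons and near stop codons and sparse close to exon junctions, where exon junction complexes sit. A region across an exon and intron border can hold reads from unspliced RNA, from exon ends placed beside the intron, or from a transcript that keeps the intron, and the counts do not separate these.

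Sequence was at hand for few of the 989, since the RefSeq tables (build GRCm38.p6) hold miRNAs and promoter windows and no whole genes. Annotated miRNA hairpins overlapped 4 border-crossing regions, against 0 of 1364 regions inside coding exons and 2 of 1131 inside introns. They are shown because they are annotated elements whose letters can be read inside the counted regions. In Dbn1, which encodes the actin-binding protein drebrin, the region chr13:55477643-55477814 (172 bases) held the whole 96-base hairpin Mir6944, with 38 bases on each side. That hairpin begins with GU and ends with AG, the letters at the ends of most introns. In Wasf2, an activator of actin branching, Mir7017 has the same end letters, and 57 of its 62 bases lay in the region. The mature arms follow from 5′ to 3′, with the seed, bases 2 to 8, in capitals. The 7 arms of the 4 hairpins had 7 different seeds.
mmu-miR-6944-5p: gUGAGAGCggggggaguggcaag
mmu-miR-6944-3p: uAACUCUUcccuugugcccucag
mmu-miR-7017-5p: aGAGGGUUgugagacuagggcugu
mmu-miR-7017-3p: aCCCUGCUccucucccuccag

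The Dbn1 region had 44 wild-type reads against 0 in the knockout, and the Wasf2 region 22 against 0. A further hairpin lay partly in a region of Prdm2, a histone methyltransferase gene (19 against 1). These reads came from fragments of polyadenylated RNA and do not measure mature miRNAs.

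Promoter windows, in 5 of 6 cases those of another transcript, overlapped 6 border-crossing regions, covering all of that in Egln1 and smaller parts of the others. They were searched on both strands for GTNAGT, the core of a 5′ splice site, and for GGAC with any letter but G after it, the core of the m6A context. The matches on the strand of the gene in 5 of the 6 are shown with their surroundings because they are the places where letters of a splice site or an m6A context can be read inside a counted region. Capitals mark the match, and no match overlapped the other motif. The sixth region, in Mrpl53 (39 reads against 4), held GGACT, and its letters are not printed because that window surrounds the gene's own start.
Pim1, chr17:29491559-29491588, plus strand, splice site letters: tggggagaactgGTGAGTgagccggagcca
Ywhag, chr5:135934305-135934334, minus strand, splice site letters: gccatgaagaacGTGAGTgtctcctcccct
Egln1, chr8:124948215-124948244, minus strand, splice site letters: ggccgaacgaaaGTAAGTggctggggctct
Pim1, chr17:29491531-29491560, plus strand, m6A context: gcacgtggagaaGGACCggatttccgattg
Ddx41, chr13:55535975-55536004, minus strand, m6A context: ggaagagcagcaGGACAgtggcagtgagcc
Zfp212, chr6:47926757-47926786, plus strand, m6A context: gcaagtgggccgtgctggGGACCctgctgc

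In Pim1, a serine/threonine kinase gene, 250 of the region's bases came before GTGAGT and 53 from it on. The Egln1 region, in the gene of an oxygen-sensing prolyl hydroxylase, had 120 before GTAAGT and 33 from it on. The Ywhag region, in the gene of a 14-3-3 protein, had 36 before and 265 from it on. GTNAGT occurred in 16.0%, 18.9% and 12.1% of 32851 promoter windows, each cut to its last 129, 153 or 92 bases to equal the length searched, so a match is common by itself and describes letters, not a used site. The m6A letters occurred in 54.8% of windows at 129 bases, 66.5% at the 177 bases searched in Ddx41 (which had 1 further match on the other strand) and 43.7% at the 92 bases searched in Zfp212. Pim1 had 157 wild-type reads against 7 in the knockout, Ywhag 75 against 10, Egln1 32 against 1, the helicase gene Ddx41 35 against 0 and Zfp212 30 against 0.

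Every one of the 989 border-crossing regions had fewer reads in the knockout, as had every region of the table, so the direction carries no information about these regions. Wild-type counts ran from 15 to 1472 with a median of 41 (quartiles 26 and 70), and knockout counts from 0 to 90 with a median of 1. Summed, 61738 wild-type reads stood against 3102. Folds are given as wild type over knockout after the constant of 0.825 that the authors applied, and on that scale the summed fold was 16.4 (15.8 to 17.0). The median log2 of knockout over wild type, with 0.5 added to both counts, was -4.68 (quartiles -5.65 and -3.23), against -4.93 over all 6697 regions.

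No knockout read was found in 425 border-crossing regions, 43.0% (39.9 to 46.1), where the share over all listed regions was 50.5%. Another 326 had 1 to 3 knockout reads and 238 had 4 or more. A difference of at least 10-fold, with a knockout count of 0 set to a floor of 3 reads, was reached by 509 regions, 51.5% (48.3 to 54.6), close to the 52.5% of all listed regions. Folds in the 564 regions with knockout reads lay between 4.12 and 262 (median 12.4). Rescaling by a median-ratio factor would lift every log2 value by 3.77, which puts 358 of the 989 above 0, so values are read here relative to one another.

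**Figure D1:**
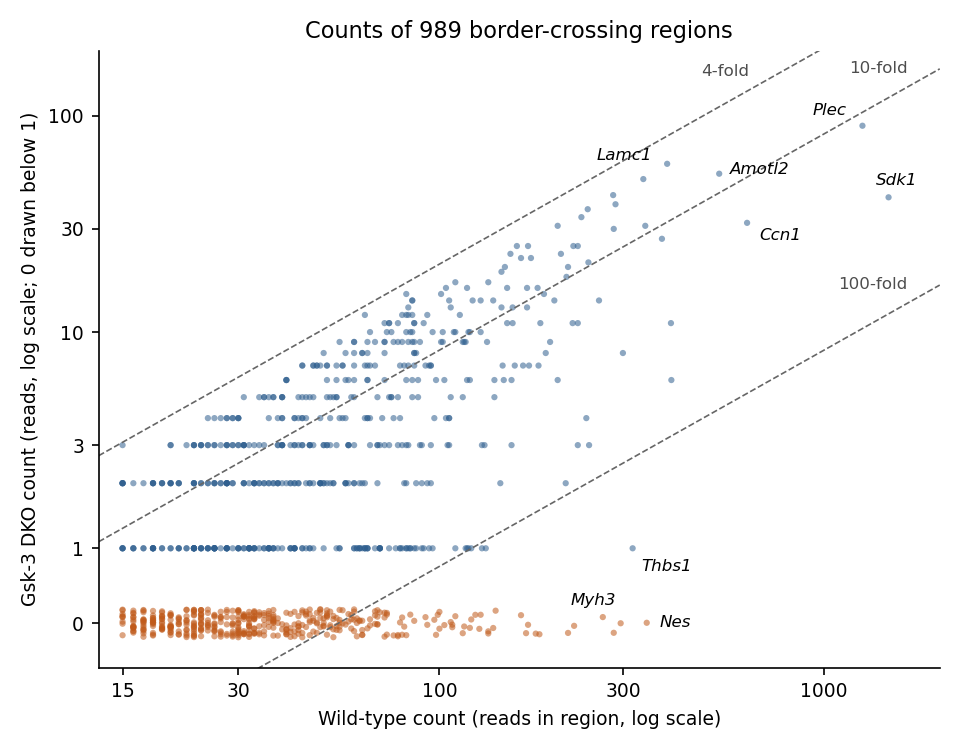
Counts of the 989 border-crossing regions, with the wild-type count on the x axis and the knockout count on the y axis (both log scales, knockout counts of 0 drawn with jitter below 1); each point is 1 region and the dashed lines mark 4-fold, 10-fold and 100-fold differences after the authors' constant. The 425 orange points at 0 reach up to 346 wild-type reads, and the highest knockout count is 90.

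In the share without knockout reads the border-crossing regions stood between regions inside coding exons and regions inside introns. Regions without knockout reads were 29.2% of the 1364 lying in coding exons only, 32.4% of the 309 reaching from a coding exon into the 3′UTR (stop-spanning), 43.0% of the border-crossing ones and 70.1% of the 1131 lying in introns only. The median log2 value followed the same order, at -3.97, -4.19, -4.68 and -5.21. The summed folds were 13.2 (12.9 to 13.5), 15.8 (15.0 to 16.5), 16.4 (15.8 to 17.0) and 23.6 (22.8 to 24.4), so the fold of border-crossing regions overlapped that of stop-spanning regions in its interval and the others did not. Regions of a gene share their transcript, and these intervals do not cover differences between genes.

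A knockout count of 0 is also more frequent where few reads were counted, and the wild-type median was 41 in border-crossing regions against 56 in exon-only, 59 in stop-spanning and 35 in intron-only regions. Within equal classes of wild-type count the border-crossing share of zeros was above the exon-only share in each of 6 classes, and below the intron-only share in the 5 classes under 200 reads. At 15 to 19 reads it was 68.9%, against 58.6% and 93.4%. At 50 to 99 reads it was 29.2%, against 23.6% and 64.8%. From 100 to under 200 reads the gap to exon-only regions was at its widest in proportion, 24.0% (15.8 to 33.7) of 96 regions against 9.09% (5.72 to 13.6) of 231. At 200 reads or more the shares were 15.8% and 6.62%, with 15.4% for intron-only regions. Weighted to the border-crossing counts, the share was 36.0% for exon-only, 40.6% for stop-spanning and 69.6% for intron-only regions, against 43.0%. Stop-spanning regions of like depth thus lay within the interval of the border-crossing share.

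**Figure D2:**
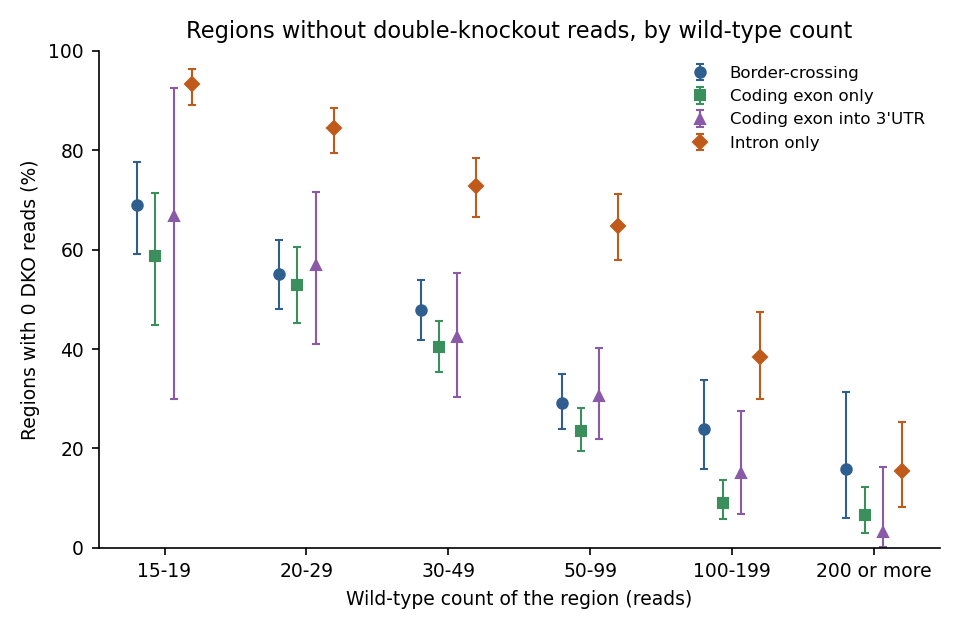
Share of regions with 0 knockout reads (y axis, percent) by class of wild-type count (x axis, reads) for border-crossing, exon-only, stop-spanning (coding exon into 3′UTR) and intron-only regions; bars are exact 95% binomial intervals. The border-crossing share falls from 68.9% to 15.8% and lies above the exon-only share in every class, while the intron-only share starts at 93.4%.

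The border-crossing regions were short and rather thinly covered for coding sequence. Their widths ran from 150 to 773 bases with a median of 183, against 201.5 for exon-only and 224 for stop-spanning regions, and 26 of them (2.63%) exceeded 400 bases, against 7.26% and 10.4%. The median wild-type density was 0.209 reads per base, against 0.265 in exon-only and 0.190 in intron-only regions. The widest stood in Clip2, a microtubule-binding protein gene (773 bases, 244 reads against 21), Ccn1, a secreted matrix signal (745 bases, 631 against 32), and Nes, the filament protein nestin of neural progenitors (679 bases, 346 against 0).

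The span of the gene, counted once for each region, had a median of 33298 bases for border-crossing regions. It was 28196 for exon-only, 20327 for stop-spanning and 120412 for intron-only regions. Along the gene span the median border-crossing region lay at 63.5% of the way from the transcription start, close to exon-only regions at 65.2%, where stop-spanning regions lay at 90.7% and intron-only regions at 42.7%. The last 20% of the span held 27.3% of border-crossing and 35.4% of exon-only regions, and the first 20% held 12.1% and 16.3%. By position along the gene, the share of regions without knockout reads was 41.7% (32.7 to 51.0) in the first 20% of the span, 51.7% (43.4 to 59.9) from 20% to 40% and 38.5% (32.7 to 44.6) in the last 20%, with summed folds of 17.1, 20.1 and 14.4. From 40% to 60% the share was 41.2% (fold 15.3) and from 60% to 80% it was 44.5% (fold 17.7), so it did not change steadily along the gene. The intervals of the 20% to 40% step and of the last step overlapped narrowly. The median wild-type count was also lowest from 20% to 40%, at 33, against 39 to 44 in the other steps, and the part of depth was not tested.

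**Figure D3:**
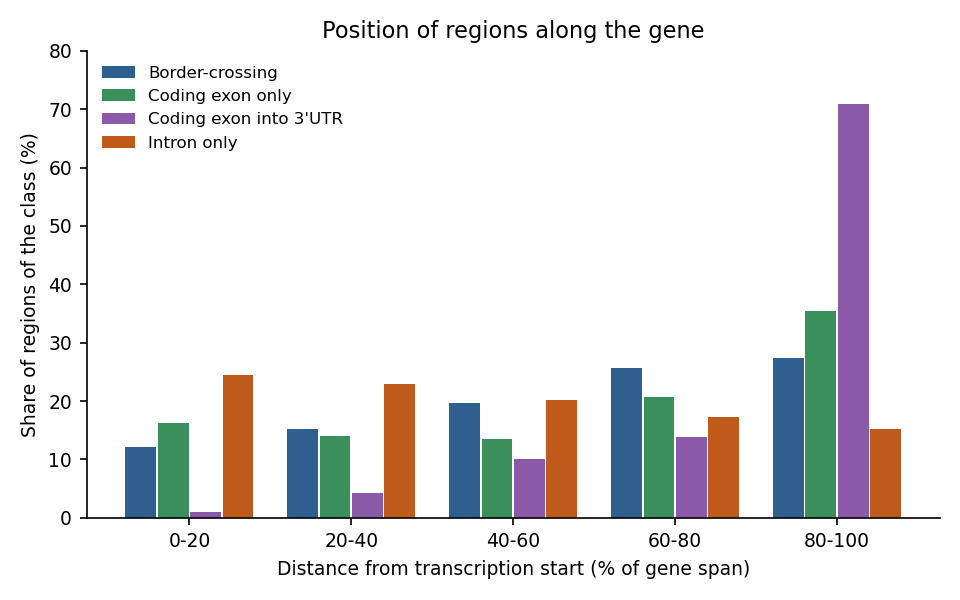
Place of regions along the span of their gene (x axis, percent of span from the transcription start, in steps of 20) and the percentage of each kind of region found there (y axis). Border-crossing regions rise from 12.1% in the first step to 27.3% in the last, intron-only regions fall from 24.5% to 15.2%, and stop-spanning regions reach 70.9% in the last step.

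Of the 715 genes, 569 had 1 border-crossing region, 98 had 2 and 48 had 3 or more, and these 48 held 224 regions. For 389 genes no other kind of region was listed. An exon-only region was present in 161 genes (22.5%), an intron-only region in 67 (9.37%) and a stop-spanning region in 52 (7.27%). Neighbouring border-crossing regions of a gene lay a median of 3014 bases apart (quartiles 1101 and 8219), and 63 of 274 neighbouring pairs were under 1000 bases apart. The 10 genes with most wild-type reads held 20.3% of the border-crossing wild-type reads and 25.5% of the knockout reads.

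Genes of the basement membrane, the sheet of laminin and type IV collagen that endoderm and epithelia lay down, had a smaller summed fold than the border-crossing regions as a whole (16.4). Of 26 genes looked for, 10 had border-crossing regions, 46 in all, with 4978 wild-type reads against 476. The summed fold was 8.63 (7.85 to 9.50) and the median log2 value -3.30, beside -4.68 for all border-crossing regions. Knockout reads were absent from 9 of the 46 (19.6%), against 43.0% of border-crossing and 50.5% of all listed regions. At least 10-fold was reached by 22 of the 46 (47.8%), beside 51.5% and 52.5% of the same sets. These sets are not matched for depth, since the median wild-type count was 78 in the 46 regions and 41 in all border-crossing regions. Among border-crossing regions with 50 to 99 wild-type reads, 71.5% reached 10-fold and 29.2% had no knockout read.

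Lamc1, the laminin γ1 chain found in most laminins, had 13 border-crossing regions between 153223592 and 153332221 on chromosome 1, more than any other gene. In order along the chromosome its wild-type counts were 155, 159, 216, 24, 391, 51, 82, 300, 102, 287, 38, 61 and 43, and its knockout counts were 11, 25, 20, 0, 60, 7, 10, 8, 10, 39, 0, 0 and 0. The 3 regions at the high end of the coordinates had no knockout read, and the other 10 had 1 region without. Summed, 1909 reads stood against 190, 8.29-fold (7.14 to 9.67), and its log2 values ran from -6.66 to -2.37.

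Col4a1, the α1 chain of type IV collagen, had 8 border-crossing regions and no other listed region. The wild-type counts were 104, 283, 243, 35, 24, 134, 110 and 24, against 16, 43, 37, 1, 0, 17, 17 and 3 in the knockout. Every region of Col4a1 with over 100 wild-type reads kept at least 16 knockout reads. The summed fold was 5.89 (4.91 to 7.11), and the regions with 243 and 35 reads overlapped by 19 bases, so that they are not separate measurements. Col4a2, transcribed beside Col4a1, had 1 region with 203 against 31.

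Lama1, the laminin α1 chain of early embryonic basement membranes, had knockout reads in all 7 of its regions. Its wild-type counts were 29, 106, 86, 82, 170, 74 and 82, and its knockout counts 3, 14, 7, 6, 25, 3 and 15. The sum of 629 against 73 gave 7.11-fold (5.57 to 9.18). Hspg2, the heparan sulfate proteoglycan perlecan, had 20 against 2, 25 against 4 and 35 against 5, 5.998-fold in sum (3.18 to 12.5). Lamc1, Col4a1, Lama1 and Hspg2 thus all lay below 10-fold in sum. The endoderm markers had the highest knockout sum of the 4 marker lists (224), but 134 of these reads were those of Col4a1 and 73 those of Lama1. That sum is therefore no separate observation, and the part of cell composition in this result was not tested.

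Other basement membrane genes had larger differences. Col18a1, the collagen from which endostatin is cut, had 70, 52, 181, 50, 128, 54, 241 and 64 wild-type reads in its 8 regions, against 1, 4, 7, 0, 10, 1, 4 and 4. All 8 reached 10-fold and the sum gave 22.3-fold (15.6 to 33.1), an interval that does not touch those of Lamc1, Col4a1 or Lama1. Lama5, the laminin α5 chain, had 58 against 3 and 121 against 0 (49.2-fold in sum, 16.6 to 240.9), and Nid1, the laminin and collagen linker nidogen, had 65 against 1. Agrn, the proteoglycan agrin, had 55 against 0.

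Genes of the interstitial matrix, which fibroblasts and mesenchyme secrete, stood at the other end. Here 6 of 26 genes had 19 border-crossing regions, with 1290 wild-type reads against 10 in all. The summed fold was 106 (57.7 to 222), and 14 of the 19 (73.7%) had no knockout read, against 43.0% of border-crossing and 50.5% of all listed regions. Thbs1, the matrix glycoprotein thrombospondin 1, held 318, 103, 46, 62, 50 and 47 wild-type reads in its 6 regions against 1, 0, 0, 1, 0 and 0. Col1a1, the main chain of type I collagen, had 19, 108, 66 and 55 against 0 in each, in sum at least 68.2-fold lower in the knockout at a floor of 3 reads over the gene. Col5a1, a fibril-starting collagen, had 25 and 72 against 0.

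Fn1, fibronectin, differed less than its list. Its 5 regions had 38, 19, 65, 22 and 57 wild-type reads against 3, 0, 4, 1 and 0, in sum 20.7-fold (10.3 to 48.7). The Tnc (tenascin C) region had 78 against 0 and that of Fbln2 (fibulin 2) 40 against 0. The counting intervals of the summed fold of the interstitial list (57.7 to 222) and of the basement membrane list (7.85 to 9.50) did not overlap, at median wild-type counts that are not matched between the lists. The mesoderm and fibroblast markers had 3 knockout reads in all against 670, where 248 of the 670 were the Col1a1 reads given above. The part of cell composition here was not tested either.

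Cytoskeletal linkers and crosslinkers, the large proteins that tie actin, filaments and adhesions together, were the list with most border-crossing regions: 52 in 12 of 26 genes, with 6119 wild-type reads against 295 (17.1-fold). Within it the genes ran far apart. Flnc, the muscle filamin that crosslinks actin, had 12 regions between 29440158 and 29456583 on chromosome 6. Its wild-type counts were 134, 110, 80, 27, 118, 124, 138, 213, 182, 93, 34 and 107, and its knockout counts were 0, 0, 0, 2, 1, 0, 0, 2, 0, 0, 0 and 0. Only 5 knockout reads were thus counted over the whole set, against 1360, a 224-fold difference (95.9 to 692).

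Flna, the widely expressed filamin, had 134, 91, 55, 222, 38, 154, 28 and 127 reads against 0, 1, 0, 11, 0, 3, 1 and 0 in its 8 regions, in sum 43.8-fold (26.8 to 76.9). Its 3 exon-only regions, with 340 reads against 6, gave 46.7-fold. The intervals of Flnc and Flna did not overlap.

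Plec, the filament linker plectin, had 1259, 75, 223, 26, 207, 93 and 102 reads against 90, 5, 25, 1, 23, 12 and 9. Knockout reads were present in all 7, and the sum gave 9.92-fold (8.46 to 11.7), beside 9.20-fold in its 18 exon-only regions. The region with 1259 reads (76178503 to 76178929 on chromosome 15) had the highest knockout count of all 989. Nes had 98, 41 and 346 reads against 0 in each of 3 regions, at least 133-fold in sum. Vcl (vinculin) had 42, 80, 56 and 45 against 1, 0, 0 and 5, and Tln1 (talin), which links integrins to actin, 15, 57, 41, 32, 20 and 74 against 1, 2, 3, 1, 0 and 5 (16.4-fold, 9.23 to 32.2). Actn1, an α-actinin that bundles actin, held the smallest fold among the deeper regions, 64 against 12 (4.40-fold, 2.35 to 8.95), but also a region with 79 against 0.

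Motor protein genes gave 20 border-crossing regions in 6 of 24 genes, 1756 reads against 74 (19.6-fold). Myh10, nonmuscle myosin IIB, had 65, 51, 46, 22, 32, 229, 144, 66, 82 and 168 wild-type reads against 8, 6, 1, 0, 0, 3, 2, 7, 2 and 0. Its regions had the widest range of log2 values of any gene with 3 or more, from -8.12 to -2.67. The value of -8.12 came from 168 against 0 and depends on the pseudocount, where the bound was 46.2-fold. Of its 3 regions with over 100 wild-type reads, 1 had 3, 1 had 2 and 1 had 0 knockout reads, whereas 65, 51 and 66 wild-type reads went with 8, 6 and 7. Myh9, nonmuscle myosin IIA, had 148, 106, 17 and 55 against 20, 3, 2 and 9 (7.91-fold, 5.55 to 11.6), and its interval lay below that of Myh10 (17.8 to 38.7). Myh3, embryonic muscle myosin, had 296 against 0 in 1 region, at least 81.4-fold.

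**Figure D4:**
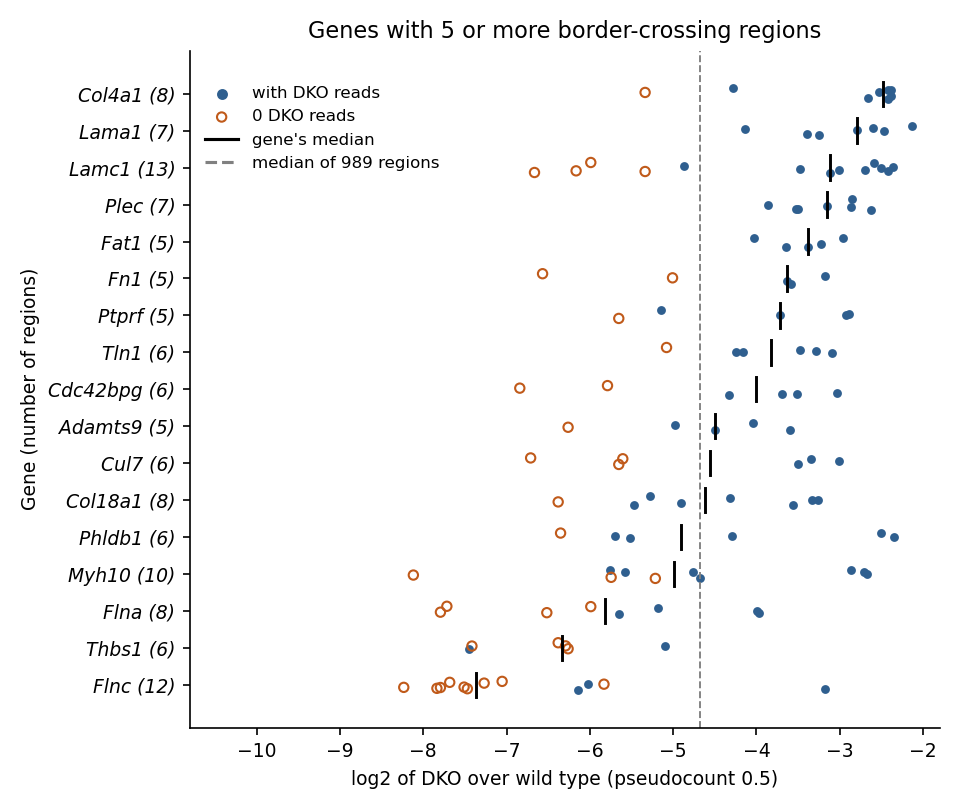
log2 of knockout over wild type (x axis, 0.5 added to both counts) for each border-crossing region of the 17 genes with 5 or more (y axis, number of regions in brackets); filled points have knockout reads, open points have none, black ticks are the gene's median and the dashed line is the median of the 989 regions (-4.68). Col4a1, Lama1, Lamc1 and Plec gather at the right and Thbs1 and Flnc at the left, while Myh10 spreads from -8.12 to -2.67.

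Receptor and signalling genes are set against the 715 of 3882 genes in the table (18.4%) that had a border-crossing region. The 3882 hold every gene on any annotation line. List genes are counted only where a region was assigned to them, which was so for 3369 genes, so 18.4% is somewhat low as a measure for the lists. Fat1, an atypical cadherin, was the 1 with any among the 10 cadherin genes in the table, and its 5 regions had 406 reads against 30 in sum (11.2-fold, 7.70 to 16.8), with knockout reads in each. Of the 17 listed axon guidance genes, 4 had 8 regions: Epha2, an ephrin receptor, had 122 against 14 and 49 against 4, and Plxna1 and Plxnd1, receptors for semaphorins, had 22, 16 and 60 against 0, 0 and 2 and 68 against 0. In the LDL receptor family 4 of 6 genes in the table had 6 regions with 183 reads against 8, among them Lrp2, an endocytic receptor of endoderm and kidney (43 against 4). Lrp5, a co-receptor for Wnt ligands, was the 1 of 15 Wnt pathway genes in the table with border-crossing regions, at 33 and 16 reads against 0.

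The kinases removed in these cells act in Wnt and insulin signalling. In the insulin, PI3K and mTOR list, 3 of 11 genes in the table had 1 border-crossing region each. Mtor, the growth-controlling kinase, had 36 against 0, Rps6kb1, the S6 kinase downstream of it, had 43 against 2, and Tsc1, an inhibitor of mTOR, had 28 against 1. With so few wild-type reads the difference cannot be sized closely: the bound for Mtor was 9.90-fold, and the interval for Tsc1 ran from 3.82 to 944.3. Of 21 m6A machinery genes looked for, 8 had a region of any kind and 0 of these 8 a border-crossing one. Beside a share of 18.4% over the genes in the table, 8 genes are too few to read this as an absence.

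Chromatin regulator genes had a summed fold of 15.0 (11.7 to 19.5), and splicing, helicase and translation genes one of 11.6 (7.39 to 19.3). Both intervals held the 16.4 of all border-crossing regions. Of 56 chromatin regulator genes 17 had 23 border-crossing regions, with 1181 reads against 65 and a median log2 of -4.11. Setd1a, a histone H3 lysine 4 methyltransferase, had 119 against 1, Chd7, a chromatin remodeller, 106 against 4 and 26 against 0, and Kmt2a, another methyltransferase, 85 against 9 and 30 against 0. Kmt2d had 59, 82 and 24 against 5, 1 and 0. Splicing, helicase and translation genes gave 5 regions in 4 of 34 genes, all with knockout reads (282 against 20). Among them were Ddx21, a nucleolar helicase (101 against 9), and Upf1, the helicase of nonsense-mediated decay (71 against 4).

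Ubiquitin ligase and deubiquitinase genes gave 9 regions in 4 of 28 genes, with 344 reads against 10. Cul7, a cullin scaffold, accounted for 6 of the 9, with 24, 75, 29, 18, 30 and 63 reads against 2, 5, 0, 1, 0 and 0 (24.6-fold, 12.3 to 57.7), and had no other kind of region listed.

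Outside the lists, the deepest border-crossing region was that of Sdk1, an immunoglobulin superfamily adhesion gene (141948535 to 141948695 on chromosome 5). It had 1472 reads against 42 in 161 bases, 28.9-fold (21.3 to 40.3). Adamtsl1, a secreted ADAMTS-like matrix protein gene, had 400 against 11 and the lipid transporter gene Abca12 379 against 27. Regions with many wild-type reads and no knockout read included Ctsw, a cathepsin gene (284), Il18r1, a cytokine receptor gene (224), AI661453 (216) and Ppef2, a phosphatase gene (178). Their lower bounds ran from 78.1-fold for Ctsw to 48.9-fold for Ppef2, and they follow the wild-type count alone. Among the smallest folds of the deeper regions stood Pfn1, the actin monomer binder profilin (50 against 8), F11r, a tight junction adhesion gene (44 against 7), and Nlrc5, an activator of MHC class I genes (44 against 7), where the fold of Pfn1 was 5.15 (2.42 to 12.6).

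The most direct comparison of a border with an exon is within a gene. In 160 of the 161 genes with both kinds of region (1 gene with a RIKEN name was passed over), the deepest region of each kind was taken. The border-crossing region had the lower log2 value in 83 genes and the higher in 77, with a median difference of -0.09 (quartiles -1.50 and 0.71). In the 84 genes with knockout reads in both, it was lower in 39 and higher in 45, with a median difference of 0.06. Over whole kinds of region, by contrast, the border-crossing median lay below the exon-only median (-4.68 against -3.97), and the 160 genes differ from the rest of the 715 in having an exon-only region listed. Wild-type reads were fewer at the border in 111 of the 160, with medians of 54 and 70.5.

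Single genes departed in both directions. Lats2, a kinase of the Hippo pathway, had 163 against 0 at a border and 90 against 8 in an exon. Lefty2, a Nodal antagonist, had 128 against 0 and 46 against 5, and Dusp1, a MAP kinase phosphatase, 140 against 0 and 111 against 7. In these 3 the shallower exon region kept reads where the deeper border region had none. The border region kept reads and the exon region had none in Tgfbr2, a TGF-β receptor (46 against 3 at the border, 106 against 0 in the exon), Phldb2, which anchors microtubules at the cell cortex (214 against 18, and 76 against 0), and Dlg5, a junctional scaffold (54 against 5, and 60 against 0). The exon region was the deeper in Tgfbr2 and Dlg5 and the shallower in Phldb2. These 6 were taken as the 3 extremes of the difference in each direction among deeper pairs.

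**Figure D5:**
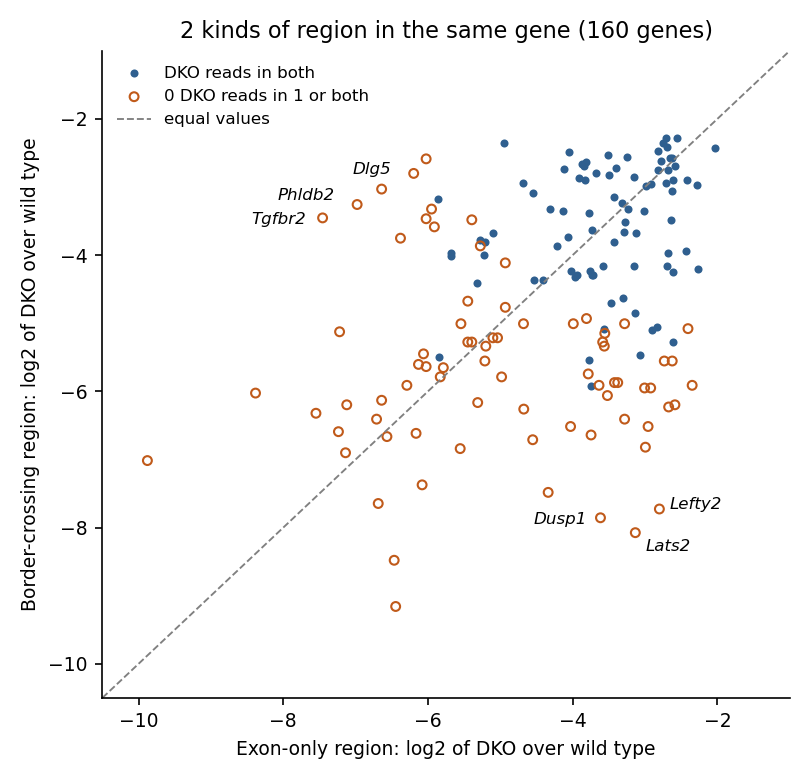
log2 of knockout over wild type (0.5 added to both counts) in the deepest border-crossing region (y axis) against the deepest exon-only region (x axis) of each of 160 genes; open points have 0 knockout reads in at least 1 of the regions and the dashed line marks equal values. The points fall on both sides, 83 below and 77 above the line, with the 6 named genes farthest from it among deeper pairs.

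Border-crossing regions of 1 gene also differed among themselves. In the 48 genes with 3 or more, the range of log2 values within a gene had a median of 2.55 and reached 5.45 in Myh10. All regions lacked knockout reads in 4 of the 48, all had them in 11, and the other 33 were mixed.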

How the data were processed

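m6A immunoprecipitate and input libraries of both genotypes are described in the labels, 1 per group. Per the labels' protocols, oligo(dT)-selected RNA was taken with an m6A antibody and fragmented chemically. Bowtie2, DESeq and mm9 are named in the submitters' processing notes, without version or role. The peak caller is not given in the sources used here, nor is how regions entered the table.

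The deposited counts are whole numbers per region, 1 column per genotype, and the file headers state no normalization. The deposited enrichment ratio equals wild type over knockout times 0.825, blank where the knockout count is 0. The deposited read density, a signal, equals the wild-type count over the region's length. Library totals are not given, so sequencing depth is unknown. Coordinates are as deposited: of 6035 annotation lines with a RefSeq gene, 6026 fell no more than 5000 bases from it in GRCm38.p6, so they are read as GRCm38 although the notes name mm9. All 715 gene identifiers of the border-crossing regions matched RefSeq, and current symbols are used (Cyr61 and Ctgf in the file are Ccn1 and Ccn2). Annotation of exon and intron is the authors' own.

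Folds, log2 values (pseudocount 0.5), Clopper-Pearson and exact Poisson intervals were computed with Python 3.11.15, pandas 2.3.3, numpy 2.4.6 and scipy 1.17.1, and the code was checked on artificial counts. A fold at 0 knockout reads is a lower bound at 3 reads. A list median needs 5 regions. The rule for naming took the 6 genes with most regions, the 8 highest wild-type counts (also among regions at 0), the 8 smallest folds at or above the median mean count, the 3 longest, up to 3 per gene list and the 3 largest within-gene differences each way, passing over predicted genes. Other genes named in the text were added after their values were seen. The regions and the 13 gene lists were chosen with earlier results of these data known. A few of the regions so chosen are not reported here.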

Additional observations from a re-analysis of the deposited data

How the results depend on the processing

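No paired analysis was possible because each group had 1 library, and for the same reason no library could be left out. The median log2 value of the border-crossing regions (-4.68) was -4.87 with a pseudocount of 0.25, -3.31 with 2, -4.95 with no constant, -0.91 under a median-ratio factor and -4.13 when only regions with a mean count no lower than the overall median were kept. That depth filter took the share at 0 from 43.0% to 27.3%, the summed fold from 16.4 to 14.8 and the number at least 10-fold lower from 509 of 989 (51.5%) to 326 of the 469 kept (69.5%). The summed fold was 19.9 without the constant, and 765 regions reached 10-fold with a floor of 1 read. The constant, pseudocount, factor and floor enter these values directly. The depth filter enters the 10-fold number too. At a floor of 3 reads, a region at 0 can reach 10-fold only with enough wild-type reads. Every region at 0 that the filter kept (mean count of at least 22.5) had enough, so all of these were counted by construction. How far this accounts for the change was not tested.

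The median-ratio factor moved the list medians to -0.63 (linkers), -0.95 (motors), -2.53 (interstitial matrix), -0.39 (LDL receptors), -0.35 (chromatin) and -0.94 (ubiquitin), and past 0 for the basement membrane (0.47), cadherins (0.39), axon guidance (0.016) and splicing (0.22). The order of lists cannot change under it. The interstitial list was at -7.28 and -4.34 with pseudocounts of 0.25 and 2, and the LDL receptors at -2.91 with 2. With 1 region per gene the linkers moved from -4.40 to -3.50 and the interstitial list from -6.29 to -6.96. Of 456 alternatives for named regions 342 stayed within their counting error, namely all 114 under each of the 2 pseudocounts and without the constant. At 0 knockout reads that error has no lower limit, so a downward shift could not leave it. The median-ratio factor moved all 114 named regions and put 47 of them above 0. Of these, 12 had been at least 10-fold lower: Lamc1 0.29, Flnc 0.58, Col18a1 0.50, 0.43 and 0.20, Plec 0.25, Abca12 0.26, Fat1 0.12, Lrp1 0.22, Upf1 0.054, Cul7 0.27 and Tgfbr2 0.31. The within-gene median difference (-0.09) stayed between -0.13 and 0.09 in the alternatives run, where 1 region per gene was already the rule. Lists with fewer than 5 regions gave no median.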

Other observations

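Several genes of the Hippo pathway, which restrains growth through the coactivators YAP and TAZ, were noticed among the deepest border-crossing regions, and the following group was put together after their values were seen. Of 15 pathway and target genes looked for, 8 had border-crossing regions, 15 in all, with 3137 wild-type reads against 201. Amotl2, an angiomotin family scaffold that binds YAP, had 534 against 54, 339 against 51 and 153 against 23 in 3 of its 4 regions and 14 knockout reads in the other, so that none was at 0, and the sum of 1225 against 142 gave 7.12-fold (5.98 to 8.53). Lats2, the kinase that phosphorylates YAP, had 163, 60, 87 and 90 against 0, 0, 1 and 2 in its 4 regions, 110-fold in sum (37.4 to 536). The counting intervals of Amotl2 and Lats2 did not overlap.

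Ccn1 and Ccn2, matricellular genes that YAP is known to activate, also stood apart from each other. Ccn1 had 631 and 401 against 32 and 6, 22.4-fold in sum (16.2 to 31.8). Ccn2 had 266 against 0 in 1 region, at least 73.1-fold. Ptpn14, a phosphatase that restrains YAP, had 85 against 14 (5.01-fold, 2.83 to 9.55), among the smallest folds of the deeper border-crossing regions. The genes of the group thus ran from about the fold of Col4a1 to beyond that of Flna, and it is described here with no test.

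By chromosome, the share of border-crossing regions without knockout reads was lowest on chromosome 9 (27.8% of 54) and highest on chromosome 6 (64.0% of 50). Over all border-crossing regions it was 43.0%. On chromosome 6, 12 of the 50 belong to Flnc, and 9 of these 12 had no knockout read. The share without Flnc was not computed.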
